A study of Mus musculus with 18 samples.

Results

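Neutrophils sorted from the bone marrow of mice labelled CIS-/- were compared with wild-type (WT) neutrophils after 4 h in culture with GM-CSF, a cytokine that drives myeloid cell growth. The 6 libraries concerned, 3 labelled CIS-/- and 3 labelled WT, were chosen by their labels from the 18 of the series, which also holds the same genotypes unstimulated and after 24 h. The mice were 10 weeks old, and the cells of every group came from one kind of FACS sort and were lysed either straight after it (unstimulated) or after culture in serum-containing medium with 100 ng/mL GM-CSF. CIS-/- stands for loss of Cish, per the series' labels, which do not say which part of the gene was removed, in what strain, or whether replicates are separate mice. The p-values therefore measure the spread between these libraries, which may be technical. No group was cultured without GM-CSF, so effects of culture and of GM-CSF cannot be told apart here. The series asks how CIS restrains GM-CSF.

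CIS, the product of Cish, belongs to the SOCS family of proteins, which are made in response to a cytokine and then dampen its signal. GM-CSF binds a receptor of a specific alpha chain and a shared beta chain, which activates the kinase JAK2 and the transcription factor STAT5, beside the MAP kinase, PI3 kinase and NF-kB pathways. In neutrophils it prolongs survival and primes the cells for migration, the oxidative burst and cytokine release. Cish itself is a classical STAT5 target, so that the inhibitor forms part of a negative feedback loop.

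The 6 libraries held between 12612313 and 19164043 counts, and 15304 to 16258 genes had a count. Levels are given as CPM, the counts a gene would have in a library of 1000000 after TMM scaling, and differences as log2 fold changes of CIS-/- over WT ± SE. A gene is said to differ, rise or fall where its edgeR quasi-likelihood p, adjusted by Benjamini-Hochberg over the 11569 genes tested, was under 0.05. The first principal component of the 6 libraries (36.7% of the variance) parted the genotypes. The second (18.8%) parted replicate 1 from replicate 3 of the CIS-/- label, at 23.1 and -20.1. Neutrophil markers summed to between 76852 and 82306 CPM in libraries labelled CIS-/- and between 82240 and 83731 CPM in WT. Markers of T and NK cells summed to at most 4.09 CPM in either genotype, with Ncr1 at 0. Monocyte and macrophage markers, several of which neutrophils also express, summed to between 4142 and 4272 CPM in libraries labelled CIS-/- and between 4660 and 4796 CPM in WT, with Cx3cr1 at 0. Dendritic cell markers summed to between 192 and 201 CPM in libraries labelled CIS-/- and between 226 and 237 CPM in WT, and B cell markers to between 157 and 170 CPM in libraries labelled CIS-/- and between 161 and 173 CPM in WT. Platelet markers stood between 18 and 18.3 CPM in libraries labelled CIS-/- and between 22.2 and 26.4 CPM in WT, with Treml1 at 0. Progenitor markers stood between 295 and 301 CPM in libraries labelled CIS-/- and between 258 and 271 CPM in WT. That sum was higher, but the median log2 fold change of the 6 progenitor markers tested was -0.39. Of these 6, 2 rose and 1 fell. The monocyte and macrophage sum was lower, but the median of the 10 tested there was 0.06. Of these 10, 3 rose and 2 fell.

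The targeted gene was checked first. Cish (ENSMUSG00000032578.7, chromosome 9, 107296026 to 107302784, plus strand, mm10) stood at 243, 240 and 237 CPM in libraries labelled CIS-/-, against 1155, 1138 and 1153 CPM in WT. Every library labelled CIS-/- was far below every WT library, which came to -2.26 ± 0.03 on the log2 scale (adjusted p = 1.85e-52), but a signal remained. In unstimulated cells the order was turned round, at 18.7 ± 1.1 CPM in libraries labelled CIS-/- and 6.5 ± 0.0189 CPM in WT (SD, n = 3 each), which goes against the label. The counts cover the whole gene, so transcript left outside a deleted part would be counted too. Gm17040, a pseudogene transcript on the opposite strand that overlaps the start of Cish and is named after its values were seen, stood at 33.6, 33.4 and 33.6 CPM in libraries labelled CIS-/-, against 3.58, 2.58 and 3.05 CPM in WT. In unstimulated cells Gm17040 stood at 3.59, 4.31 and 4.51 CPM in libraries labelled CIS-/-, against 0, 0.0672 and 0 CPM in WT. Its order was thus the same as at 4 h, unlike that of Cish. No source used here states how strand was handled in counting, and reads of Cish and Gm17040 cannot be told apart within the overlap.

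The STAT-type motif TTCNNNGAA, read alike on both strands, was searched in RefSeq promoter windows of 300 bases on GRCm38.p6, from 250 bases before to 50 after each gene's start. It stood in 2582 of 27025 genes with a window (9.55%). Of the 15 genes with the largest falls at 4 h, 14 had a window and 4 held the motif (Cish, Alas1, Vill and Ifit2), while of the 15 with the largest rises 13 had a window and 0 held it. Of these 4, only Ifit2 lies outside the chromosome 9 segment around Cish described below. The motif stood in 8.46% of tested genes with a window, and in 3 of 14 STAT5-associated genes (21.4%), a list described below with more rises than falls. In the interferon-stimulated list it stood in 12 of 38 (31.6%), and in 5 of the 24 lower ones (20.8%). Cish held 2 matches, at its start site and 11 bases on. The window is shown because it is the promoter of the targeted gene, from 200 bases before the start to 30 bases from it on (chr9:107296459-107296688, plus strand), with the matches in capitals.
Cish: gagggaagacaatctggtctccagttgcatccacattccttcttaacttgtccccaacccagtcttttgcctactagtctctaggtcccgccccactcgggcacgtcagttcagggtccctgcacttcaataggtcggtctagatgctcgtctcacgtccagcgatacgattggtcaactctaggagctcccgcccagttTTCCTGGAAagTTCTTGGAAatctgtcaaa
A match is a description of letters and not a site of binding.

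Across the genome many genes differed by a little between libraries of the 2 labels. Of 11569 genes tested, 2001 differed (17.3%), 925 higher (8%) and 1076 lower (9.3%) in libraries labelled CIS-/-, with a median log2 fold change of all genes of -0.02. The median size of a called difference was 1.23-fold, 1615 of the calls (80.7%) were under 1.5-fold, and 126 reached 2-fold, 69 higher and 57 lower. Libraries of the groups did not overlap in 3654 genes (31.6%), and in 1942 of the 2001 called ones. The shares of 8% and 9.3% are the background for the gene groups.

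**Figure D1:**
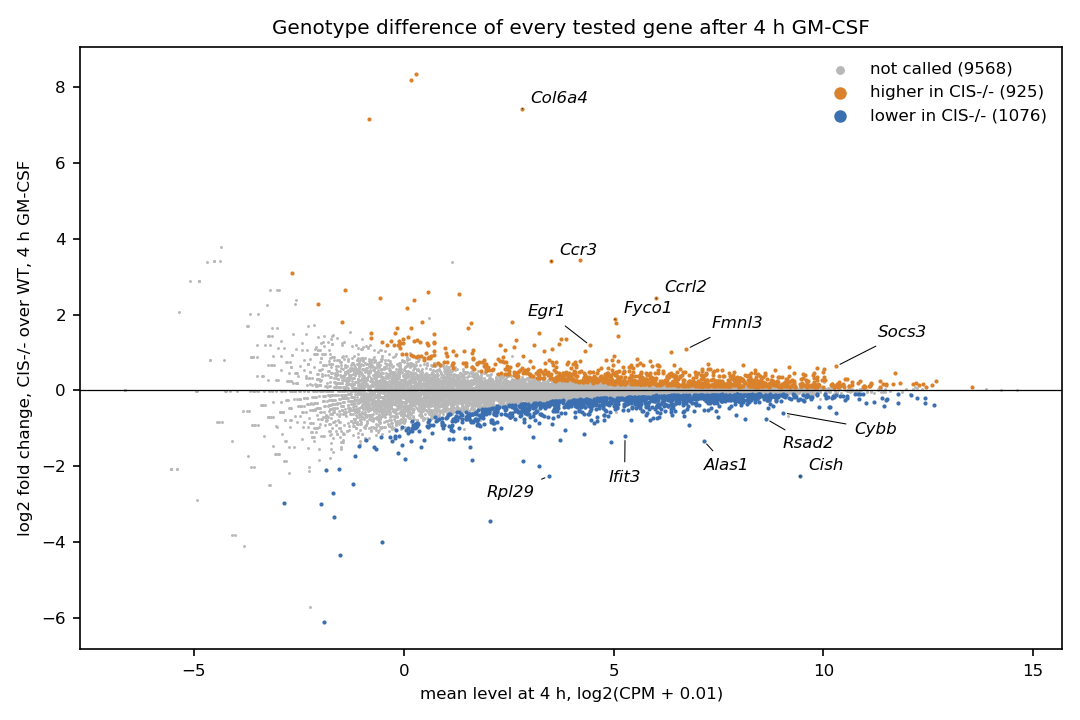
Log2 fold change of CIS-/- over WT after 4 h GM-CSF (y axis) against the mean level of each gene, log2(CPM + 0.01), with 1 point per tested gene. The 925 genes called higher are orange, the 1076 called lower are blue, and most lie close to 0, while Col6a4, Ccr3, Ccrl2, Cish and Rpl29 stand far from it.

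The largest single differences gathered near Cish itself. In the 29 Mb window centred on the gene 68 of 196 tested genes differed (34.7%), and within 5 Mb 53 of 125 (42.4%), against 1933 of 11373 outside that window (17%). Of the 126 genes that differed at least 2-fold, 23 lay in that window. Of the 15 largest falls that the naming rule gave, 9 lay there, and of the 15 largest rises 3 (Col6a4, Ccrl2 and Clasp2). Ccr3 and Fyco1 lay just beyond the window, at 16.73 and 16.49 Mb from Cish. The labels describe 1 kind of CIS-/- mouse, so loss of Cish and the chromosome segment around it cannot be told apart.

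**Figure D2:**
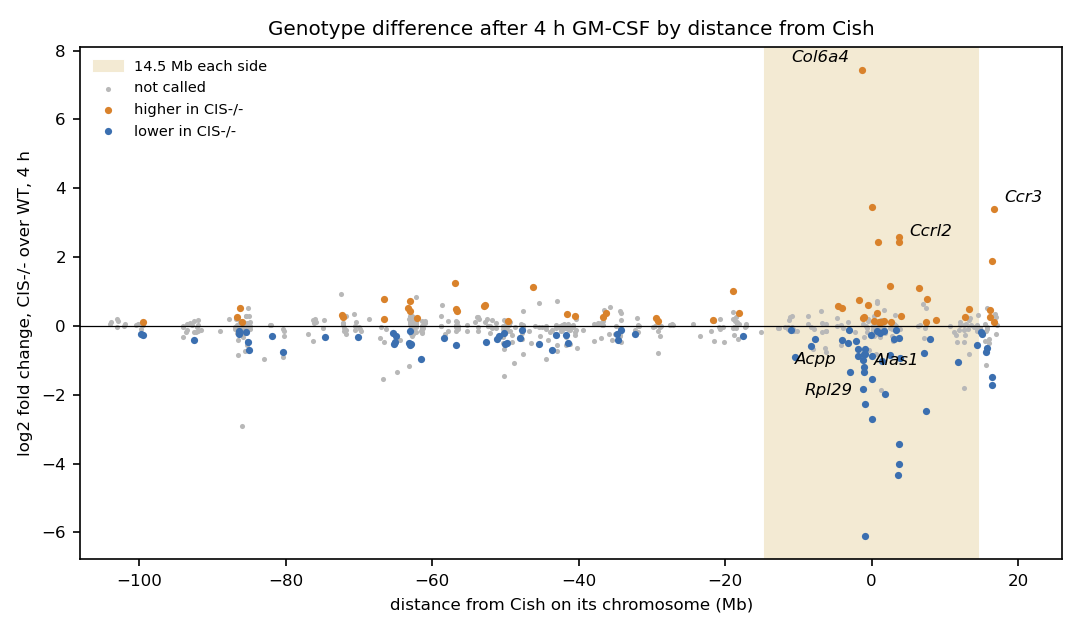
Log2 fold change of CIS-/- over WT at 4 h (y axis) for each tested gene of chromosome 9 other than Cish, against its distance from Cish in Mb (x axis), with the shaded band marking the 29 Mb window. Called genes are orange (higher) or blue (lower), and those with the largest differences, from Col6a4 at 7.43 to falls beyond -2, lie inside the band or just past its right edge.

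Among these neighbours Col6a4, a chain of type VI collagen, had 13.5, 14.2 and 14.6 CPM in libraries labelled CIS-/-, against 0, 0.136 and 0.0804 CPM in WT. That is 574 counts against 3, a ratio of 190 with a 95% counting interval of 64.6 to 923. Ccrl2, a chemerin-binding receptor that neutrophils use to fine-tune chemokine responses, had 109, 111 and 105 CPM in libraries labelled CIS-/-, against 21, 19.6 and 20 CPM in WT (2.43 ± 0.05, adjusted p = 6.34e-43). Ccr3, the eotaxin receptor that marks eosinophils, had 18.7, 23.6 and 20.5 CPM in libraries labelled CIS-/-, against 1.22, 2.31 and 2.41 CPM in WT (3.41 ± 0.17). All 3 were far higher in libraries labelled CIS-/-, and the naming rule took only genes without overlap. Other eosinophil, basophil and mast cell markers moved less. Siglecf (0.37 ± 0.11) and Kit (0.23 ± 0.04) rose, Epx had 1.65, 1.61 and 1.62 CPM in libraries labelled CIS-/- against 2.13, 2.52 and 2.81 CPM in WT without passing the test, and Mcpt4 was at 0. The whole list, Ccr3 included, summed to between 202 and 205 CPM in libraries labelled CIS-/- and between 151 and 168 CPM in WT. Kit is a progenitor marker as well. The part of these cell types in the Ccr3 difference was not tested.

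On the lower side Alas1, which makes the first enzyme of heme synthesis outside red cells, had 87.4, 78.2 and 77.2 CPM in libraries labelled CIS-/-, against 201, 200 and 207 CPM in WT (-1.33 ± 0.04, adjusted p = 1.99e-33). Acpp, a phosphatase, fell by 1.35 ± 0.07 on the log2 scale, Lrrfip2, an adaptor of Toll-like receptor signalling, by 0.92 ± 0.04, and Parp3, a DNA repair enzyme, by 0.81 ± 0.07. The ribosomal protein gene Rpl29 (-2.26 ± 0.12) and Tma7 (-1.98 ± 0.13) also stood lower, although both have near-identical processed copies among which reads can be split, so their size is uncertain. Vill, Hemk1 and Cish itself completed the 9 leading falls in the window.

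Away from chromosome 9 the leading rises included Gja5, the gap junction protein connexin 40, at 48.9, 53 and 48.8 CPM in libraries labelled CIS-/- against 17.3, 19.6 and 18.9 CPM in WT (1.44 ± 0.07, adjusted p = 1.33e-25). Fmnl3, a formin that builds actin filaments, had 149, 146 and 140 CPM in libraries labelled CIS-/- against 69.4, 65.5 and 69.5 CPM in WT (1.09 ± 0.04). Thada (1.36 ± 0.10), the carbonic anhydrase gene Car4 (1.22 ± 0.10), the RNA-binding protein gene Rbpms (1.19 ± 0.13) and Rasgrp3 (1.05 ± 0.12), an activator of Ras, were higher too. The leading falls away from it were Ifit2, Ifit3 and Ifit3b, described with the interferon genes, with the transcription factor gene Erg (-0.93 ± 0.12), Gpnmb (-0.86 ± 0.07), a glycoprotein of macrophage lysosomes, and N4bp3 (-0.85 ± 0.12). The naming rule took only genes whose groups did not overlap.

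Globin genes were among the leading rises as well. Hbb-bs, a beta-globin gene, stood at 57.3, 58.6 and 40 CPM in libraries labelled CIS-/-, against 14.6, 17.3 and 13.4 CPM in WT (1.78 ± 0.16), and Hba-a1 and Hba-a2 rose by 1.36 ± 0.11 and 1.52 ± 0.16, with reads that near-identical globin copies may share. Of 7 tested erythroid markers 6 were higher and 1, the transferrin receptor gene Tfrc, was lower, and Car1 was at 0. The list summed to between 92.7 and 127 CPM in libraries labelled CIS-/- and between 47.6 and 53 CPM in WT, with replicate 3 of the CIS-/- label lowest of its group for these globins. In bulk libraries more cells of a type and more RNA per cell cannot be told apart. The list stood higher in unstimulated cells too, between 131 and 135 CPM in libraries labelled CIS-/- and between 51 and 53.4 CPM in WT.

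Interferon-stimulated genes held the largest share of lower members among the 31 pathway lists. Of 52 listed genes 51 had a count at 4 h and 46 were tested. By edgeR 30 were lower and 0 higher in libraries labelled CIS-/-, against 9.3% lower among all genes, with a median log2 fold change of -0.30. DESeq2 gave 29 lower and 0 higher, limma-voom 30 and 0, and an unadjusted p under 0.05 gave 33 and 0. Rsad2, which encodes the antiviral enzyme viperin, had 297, 294 and 301 CPM in libraries labelled CIS-/-, against 490, 499 and 507 CPM in WT (-0.75 ± 0.03, adjusted p = 1.73e-26). Ifit3, of a family of proteins that bind foreign RNA, had 22.3, 24.1 and 23.2 CPM in libraries labelled CIS-/-, against 51.2, 55.5 and 55.5 CPM in WT (-1.21 ± 0.07). For Rsad2 every library labelled CIS-/- lay below every WT library. Ifit1, of the same family, had 41.7, 45 and 42.5 CPM in libraries labelled CIS-/-, against 69.9, 75.5 and 78.1 CPM in WT (-0.79 ± 0.06), and Ifit2 fell by 1.30 ± 0.12 on the log2 scale. Oas3, a sensor of double-stranded RNA, had 826, 821 and 791 CPM in libraries labelled CIS-/-, against 1098, 1086 and 1122 CPM in WT (-0.44 ± 0.03).

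The members differed widely in how far they fell. The following were named after their values were seen. Isg15, a ubiquitin-like protein, averaged 65.9 ± 0.888 CPM in libraries labelled CIS-/- and 103 ± 1.46 CPM in WT (SD, n = 3 each), and Irf7, the factor that amplifies the interferon response, averaged 228 ± 7.93 CPM in libraries labelled CIS-/- and 296 ± 4.4 CPM in WT. Smaller falls were called for the RNA sensor gene Ddx58 and the guanylate-binding protein gene Gbp2 (both -0.18). Others lay close to 0. Oasl2 averaged 3076 ± 53.3 CPM in libraries labelled CIS-/- and 3097 ± 84.7 CPM in WT, and Parp14 averaged 635 ± 21.3 CPM in libraries labelled CIS-/- and 637 ± 18.2 CPM in WT. Gbp5 (-0.01 ± 0.04), Ifi47 (-0.01 ± 0.04), Igtp (0.04 ± 0.04), Irf1 (-0.04 ± 0.04) and Irf9 (-0.07 ± 0.04) did not pass the test either. The closely similar pairs Ifit3 and Ifit3b, Oas1a and Oas1g, and Ifi204 and Ifi207 may share reads, so the split within each pair is uncertain.

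The interferon genes stood much closer together before stimulation. In unstimulated libraries 12 of the 46 were lower and 3 higher, with a median of -0.05, where 12.9% of all genes were higher and 9.41% lower (2578 called, 22.3%). For 23 members the difference at 4 h was below the unstimulated one by the test of the change itself, and for 0 above it (0 also by DESeq2 and limma-voom, 1 at an unadjusted p under 0.05), where 10.4% and 5.32% of all genes passed that test (1821 genes in all, 15.7%). Ifit3 changed by -1.18 (adjusted p = 1.54e-11), Ifit2 by -1.04, Ifit1 by -0.65 and Rsad2 by -0.65 (adjusted p = 5.6e-15). These tests use the unstimulated libraries whose Cish went against their label. The receptor genes of type I interferon, Ifnar1 and Ifnar2, did not pass the test at 4 h (0.05 and -0.02).

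**Figure D3:**
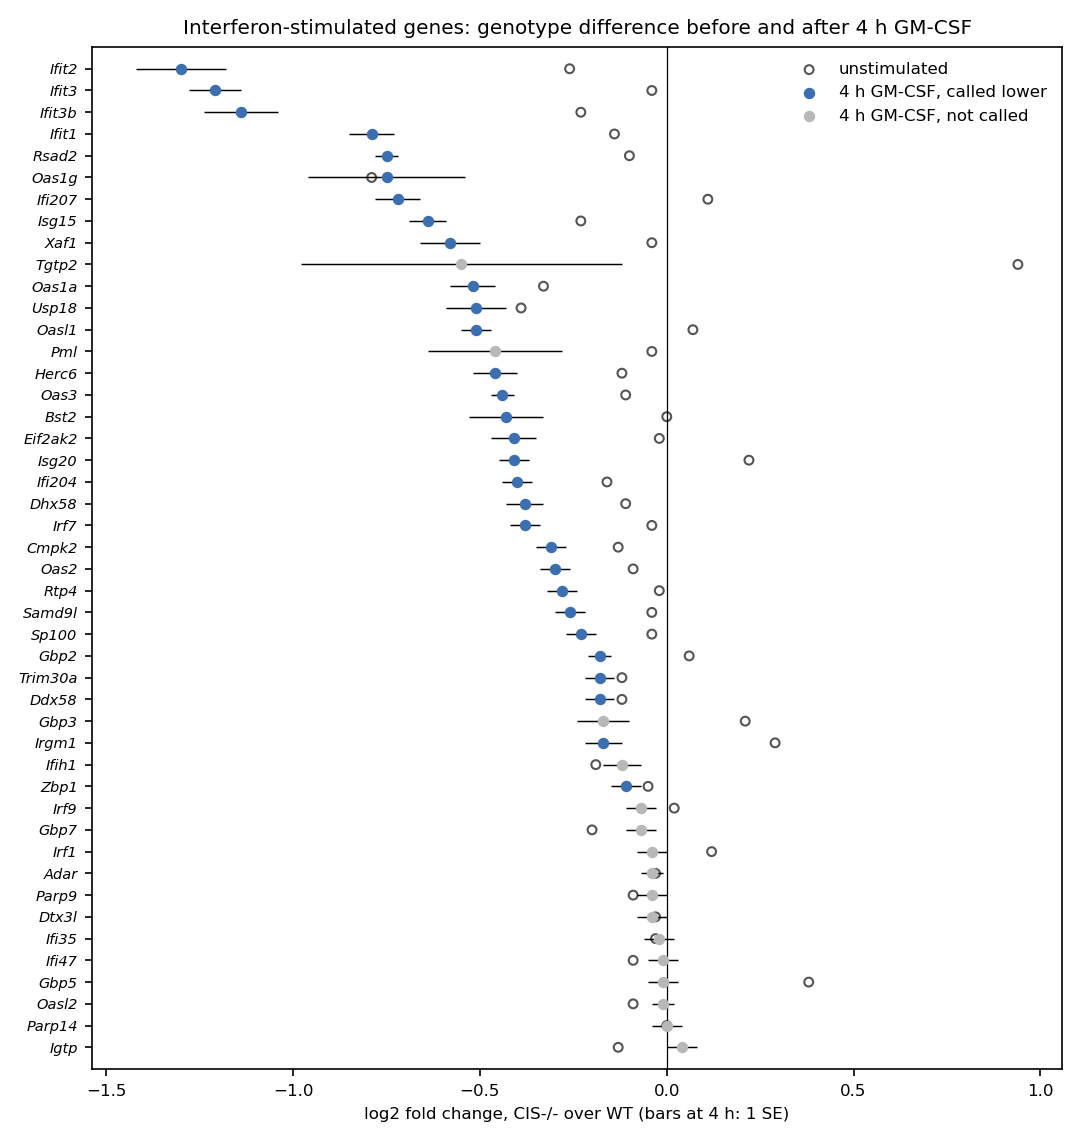
Log2 fold change of CIS-/- over WT for the 46 tested interferon-stimulated genes, unstimulated (open circles) and after 4 h GM-CSF (filled, with bars of 1 SE; blue where called lower, grey where not called). The Ifit genes lie farthest left at 4 h, from -1.30 for Ifit2, and the lowest rows, among them Oasl2, Parp14 and Igtp, lie at or near 0.

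An interferon-response type motif, GAAA and GAAA parted by any 2 bases, searched on both strands and chosen after the values were seen, stood in the promoter windows of 1079 of 27025 genes (3.99%). It stood in 21 of 38 tested interferon-list genes with a window (55.3%) and in 15 of the 24 lower ones (62.5%). Overlapping matches were counted separately, and this motif was not tested against the STAT-type one. The promoters of 3 falling genes are shown with matches on either strand in capitals, each from 200 bases before the start to 30 bases from it on. They are Ifit3 (chr19:34583329-34583558, plus strand), Rsad2 (chr12:26456423-26456652, minus strand) and Isg15 (chr4:156200789-156201018, minus strand).
Ifit3: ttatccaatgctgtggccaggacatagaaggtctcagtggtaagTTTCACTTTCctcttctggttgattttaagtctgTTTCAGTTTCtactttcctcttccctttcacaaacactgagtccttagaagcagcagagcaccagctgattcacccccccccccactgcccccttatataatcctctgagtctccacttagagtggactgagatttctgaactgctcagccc
Rsad2: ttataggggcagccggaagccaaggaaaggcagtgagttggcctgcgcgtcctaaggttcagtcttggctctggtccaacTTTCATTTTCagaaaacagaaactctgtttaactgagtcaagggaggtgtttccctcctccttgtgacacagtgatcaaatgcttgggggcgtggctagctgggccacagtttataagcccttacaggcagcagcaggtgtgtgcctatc
Isg15: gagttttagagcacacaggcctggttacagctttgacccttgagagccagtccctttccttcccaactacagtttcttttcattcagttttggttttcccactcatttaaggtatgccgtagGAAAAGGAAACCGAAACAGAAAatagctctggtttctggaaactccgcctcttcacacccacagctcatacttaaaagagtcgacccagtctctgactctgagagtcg
Ifit3 held 2 matches and Rsad2 1, while in Isg15 3 overlapping matches ran into 1 stretch.

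Genes of MHC class I presentation, which are induced by interferon as well, leaned the same way. Of 23 tested, 11 were lower and 1 higher, with a median of -0.13, and 7 were lower when genes with low counts were also tested. Tap1, which carries peptides into the endoplasmic reticulum, had 245, 261 and 246 CPM in libraries labelled CIS-/-, against 291, 293 and 309 CPM in WT (-0.25 ± 0.04, adjusted p = 1.27e-06), and overlaps Psmb9 on the other strand. B2m, the light chain of all class I molecules, had 1110, 1145 and 1062 CPM in libraries labelled CIS-/-, against 1263, 1266 and 1296 CPM in WT (-0.20 ± 0.04). H2-T22 (-0.32 ± 0.05) and H2-D1 (-0.13 ± 0.03) were lower too, within a family of similar genes whose reads may be shared.

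STAT5-associated genes went the other way. Among 18 tested, 11 rose and 1 fell (median 0.26), against 8% higher among all genes, and 9 were already higher in unstimulated libraries, against 12.9% of all genes. Bcl6, a transcriptional repressor, had 115, 112 and 114 CPM in libraries labelled CIS-/-, against 74.3, 76.6 and 77.6 CPM in WT (0.58 ± 0.04, adjusted p = 6.13e-17). Il4ra, the interleukin-4 receptor chain, had 1128, 1095 and 1099 CPM in libraries labelled CIS-/-, against 892, 887 and 946 CPM in WT (0.29 ± 0.03). Neither passed the test in unstimulated cells (-0.05 and -0.03), and the change of the difference was called at 0.62 for Bcl6 and 0.32 for Il4ra. Over the whole list the change was called upward for 4 members and downward for 5, against 5.32% and 10.4% of all genes. Cdkn1a, the cell cycle inhibitor p21, had 106, 105 and 108 CPM in libraries labelled CIS-/-, against 74.7, 79.9 and 72.8 CPM in WT (0.48 ± 0.05), but its difference was larger before stimulation, at 2.07. Bcl2l1, which encodes the survival protein BCL-XL, had 499, 500 and 456 CPM in libraries labelled CIS-/-, against 409, 403 and 427 CPM in WT (0.23 ± 0.04). The 1 member lower was the cyclin gene Ccnd2 (-0.25), named after its value was seen.

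The other SOCS genes did not follow Cish down. Socs3, an inhibitor of gp130 and G-CSF receptor signals, had 1556, 1545 and 1534 CPM in libraries labelled CIS-/-, against 986, 980 and 1004 CPM in WT (0.64 ± 0.03, adjusted p = 1.98e-26). Socs1, which restrains interferon signalling, had 295, 298 and 290 CPM in libraries labelled CIS-/-, against 242, 237 and 257 CPM in WT (0.27 ± 0.04). For both the gap was wider in unstimulated cells, where Socs3 averaged 1801 CPM in libraries labelled CIS-/- and 678 CPM in WT, and the difference at 4 h was below that one by 0.77 for Socs3 and 0.49 for Socs1 on the log2 scale. The remaining 5 tested members did not pass, among them Socs7 at -0.29 ± 0.12 (adjusted p = 0.076).

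Receptors and kinases of the pathway changed in part. Jak2 had 1123, 1185 and 1187 CPM in libraries labelled CIS-/-, against 899, 920 and 898 CPM in WT (0.36 ± 0.03, adjusted p = 2.59e-13), while in unstimulated cells it averaged 113 CPM in libraries labelled CIS-/- and 115 CPM in WT. The change of its difference was called at 0.40. Of 26 Janus kinase, STAT and regulator genes 2 were higher, Jak2 and the phosphatase gene Ptpn1, and 5 lower, among them Stat2 (-0.18 ± 0.04), a partner of interferon signalling. The 5 became 1 without WT replicate 3, 2 without replicate 1 or 2 of the CIS-/- label and 3 without its replicate 3 or WT replicate 2. Without replicate 1 of the CIS-/- label 4 were higher, and with median-ratio (RLE) size factors 6 were higher and 2 lower. The alpha chain gene Csf2ra (0.08) and the beta chain gene Csf2rb (0.04) of the GM-CSF receptor did not pass the test, and the related Csf2rb2 rose by 0.18 ± 0.03, in a similar pair of genes that may share reads. In all 9 of 24 cytokine receptor genes were higher and 1 lower. Csf1r, the M-CSF receptor, had 85, 83.1 and 81.4 CPM in libraries labelled CIS-/-, against 60.3, 62.5 and 60.2 CPM in WT (0.45 ± 0.04), and the receptor genes Il17ra (0.22 ± 0.03) and Il10ra (0.23 ± 0.03) rose as well. Among 23 feedback genes of the MAP kinase and PI3 kinase pathways 3 were higher and 7 lower. Before stimulation 12 of these 23 had been higher and 1 lower, against 12.9% and 9.41% of all genes. The change was called downward for 8 and upward for 3, against 10.4% and 5.32% of all genes. Inpp5d, the lipid phosphatase SHIP1, had 786, 785 and 775 CPM in libraries labelled CIS-/-, against 629, 620 and 638 CPM in WT (0.31 ± 0.03), while the PI3 kinase inhibitor gene Pik3ip1 (-0.63 ± 0.08), Dusp5 (-0.24 ± 0.04) and the Cish neighbour Dusp7 (-0.68 ± 0.10), both phosphatases of the kinase ERK, fell.

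**Figure D4:**
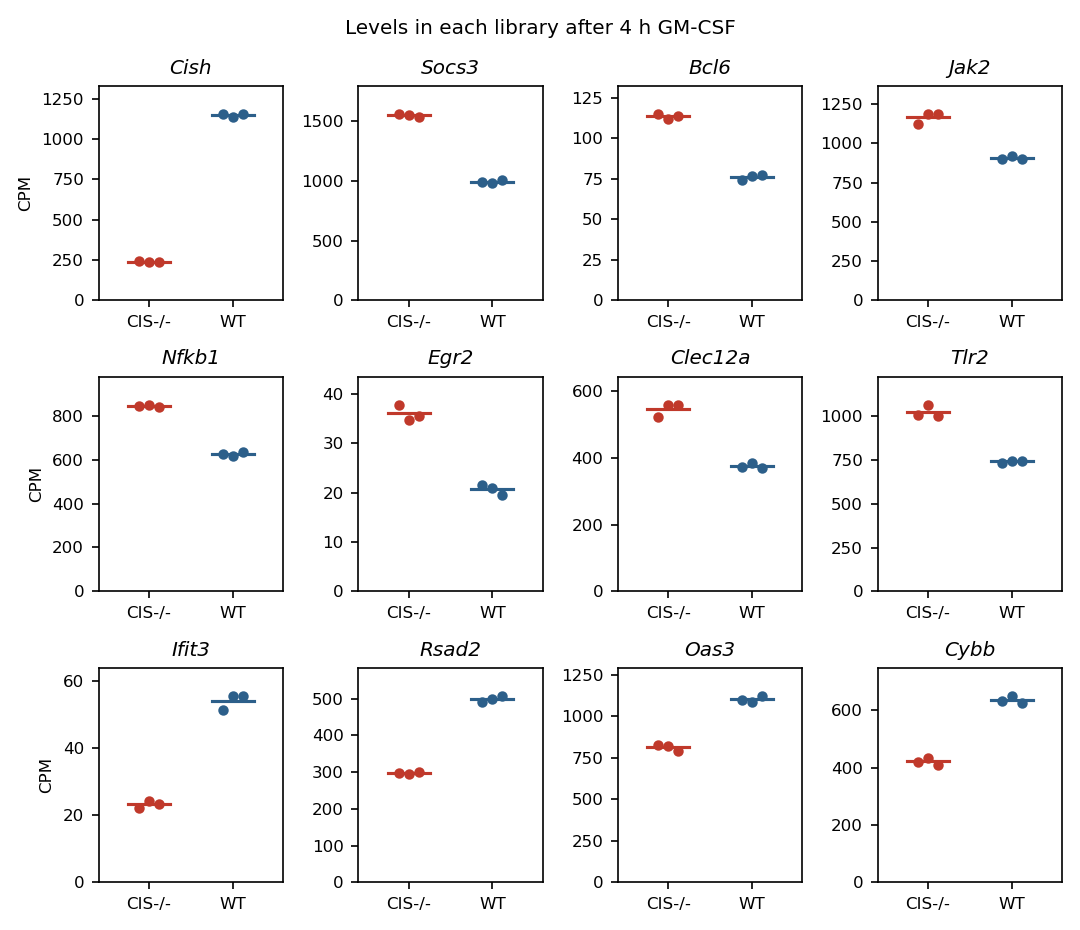
Level in CPM (y axis, from 0) of 12 genes in each library after 4 h GM-CSF, CIS-/- left and WT right, with 1 point per library and a line at the mean of 3. Cish, Ifit3, Rsad2, Oas3 and Cybb are lower in every library labelled CIS-/-, and Socs3, Bcl6, Jak2, Nfkb1, Egr2, Clec12a and Tlr2 higher.

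Genes of the NF-kB pathway were higher at 4 h where they differed. Of 28 tested, 16 were higher and 0 lower by edgeR, with a median of 0.16. DESeq2, limma-voom and an unadjusted p under 0.05 gave the same 2 counts. Leaving out single libraries at 4 h gave 13 to 15 higher and 0 lower. Nfkb1, a subunit of the factor, had 843, 849 and 840 CPM in libraries labelled CIS-/-, against 626, 618 and 637 CPM in WT (0.43 ± 0.03, adjusted p = 9.6e-17). Unstimulated cells held 174 CPM of it in either genotype, and the change of the difference was called at 0.43. Tnfaip3, the inhibitor A20, had 98.4, 91.6 and 97.1 CPM in libraries labelled CIS-/-, against 69.7, 65.4 and 73.9 CPM in WT (0.46 ± 0.05). It shared with Nfkbiz (0.40 ± 0.04), a nuclear cofactor, and unlike Nfkb1, a wider gap before stimulation, and the difference of both was called smaller at 4 h. Nfkb2 rose by 0.38 ± 0.05. In the list as a whole, unstimulated libraries already showed 17 rises and 1 fall (median 0.22). The test of the change was passed downward by 10 members and upward by 4.

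Immediate-early genes, transcribed within minutes of a signal, rose in 13 of 28 and fell in 2 (1 without replicate 1 of the CIS-/- label or WT replicate 2). Egr1 had 29.3, 30.8 and 30.4 CPM in libraries labelled CIS-/-, against 12.9, 12.8 and 14.1 CPM in WT (1.19 ± 0.07, adjusted p = 1.42e-20). Egr2, of the same zinc finger family, had 37.8, 34.8 and 35.6 CPM in libraries labelled CIS-/-, against 21.6, 20.9 and 19.6 CPM in WT (0.80 ± 0.07), and Maff, a small Maf factor, rose by 0.67 ± 0.07. These genotype gaps had been wider before culture. In unstimulated libraries 25 of the 28 were higher, against 12.9% of all genes. By the test of the change 19 differences were lower at 4 h and 1 higher, against 10.4% and 5.32% of all genes.

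Cytokine and chemokine genes were higher in 13 and lower in 4 of 30 tested, with a median of 0.18. The 4 became 2 by DESeq2 and without replicate 2 or 3 of the CIS-/- label or replicate 1 or 2 of WT. Csf1, the growth factor M-CSF, had 267, 264 and 271 CPM in libraries labelled CIS-/-, against 219, 203 and 213 CPM in WT (0.34 ± 0.04). Ccl6, a chemokine abundant in these cells, had 7091, 7337 and 7061 CPM in libraries labelled CIS-/-, against 5919, 6010 and 6012 CPM in WT (0.26 ± 0.03), and overlaps a transcript on the other strand. Tnf had 85.6, 87.8 and 87.1 CPM in libraries labelled CIS-/-, against 68, 64.8 and 70.9 CPM in WT (0.36 ± 0.05, adjusted p = 3.49e-08). Its order was the other one in unstimulated cells (-0.19), and the change was called at 0.55. Spp1, osteopontin, was lower, at 93.8, 90.8 and 91.1 CPM in libraries labelled CIS-/- against 115, 114 and 117 CPM in WT (-0.32 ± 0.04). Tnf was not typical of the list in its change. Unstimulated libraries already showed 14 rises and 2 falls among the members (median 0.59). The test of the change was passed downward by 11 members and upward by 3.

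Surface receptors of the mature neutrophil also shifted. Fc, lectin and inhibitory receptors were higher in 19 and lower in 5 of 36 tested. Clec12a, an inhibitory receptor for uric acid crystals, had 522, 558 and 557 CPM in libraries labelled CIS-/-, against 373, 384 and 369 CPM in WT (0.54 ± 0.04, adjusted p = 2.97e-18). Cd101, a marker of late neutrophil maturation, had 166, 164 and 168 CPM in libraries labelled CIS-/-, against 114, 110 and 112 CPM in WT (0.57 ± 0.04). Pilra, an inhibitory receptor (0.47 ± 0.04), and Clec5a, an activating one (0.40 ± 0.04), rose too. In unstimulated libraries Cd101 and Pilra had not differed by the test, and Clec12a (-0.17) and Clec5a (-0.29) had been lower, and the change was called for all 4, between 0.48 for Pilra and 0.71 for Clec12a. The list as a whole was more mixed. Before stimulation 8 of the 36 were higher and 6 lower, against 12.9% and 9.41% of all genes. The change was called upward for 9 and downward for 7, against 5.32% and 10.4% of all genes.

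Migration and adhesion receptors were higher in 16 and lower in 8 of 36, led by Ccrl2 and Ccr3 on chromosome 9. Of the 31 on other chromosomes 12 were higher and 8 lower. Leaving out single libraries at 4 h gave 11 to 16 higher and 7 to 8 lower. Ceacam1, an adhesion molecule, was down by 0.54 ± 0.04 on the log2 scale. Toll-like receptor and inflammasome genes were higher in 5 and lower in 4 of 30, and the 4 became 1 without WT replicate 3 and 2 without replicate 2 of the CIS-/- label. Tlr2, which senses bacterial lipoproteins, averaged 1024 ± 34.3 CPM in libraries labelled CIS-/- and 741 ± 7.49 CPM in WT (SD, n = 3 each; 0.47 ± 0.03). Traf6, a ubiquitin ligase of these pathways, had 205, 208 and 211 CPM in libraries labelled CIS-/-, against 139, 148 and 145 CPM in WT (0.53 ± 0.04), and Nlrp3, the inflammasome sensor, rose by 0.26 ± 0.03. Of 16 class II and costimulation genes 5 were higher, among them the lysosomal protease gene Ctsl (0.70 ± 0.04) and Cd86 (0.48 ± 0.09), and 2 lower (1 without replicate 1 or 2 of the CIS-/- label or WT replicate 3), H2-Eb1 (-0.64 ± 0.15) and, named after its value was seen, Cd274 (-0.11).

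Granule genes leaned down. Of 37 tested genes of the specific and gelatinase granules, made late in neutrophil development, 14 were lower and 6 higher. Of these, 33 lie outside chromosome 9, with 11 lower and 6 higher. Cybb, the membrane subunit of the NADPH oxidase that makes superoxide, had 420, 434 and 411 CPM in libraries labelled CIS-/-, against 631, 650 and 624 CPM in WT (-0.59 ± 0.03, adjusted p = 1.88e-22). Chil3, a chitinase-like protein, had 1008, 1068 and 938 CPM in libraries labelled CIS-/-, against 1498, 1550 and 1529 CPM in WT (-0.60 ± 0.04), a difference of -0.59 in unstimulated cells as well. Lcn2, the iron-withholding protein lipocalin 2, had 2149, 2150 and 2002 CPM in libraries labelled CIS-/-, against 2582, 2578 and 2662 CPM in WT (-0.31 ± 0.03). Ltf, lactoferrin, fell by 0.34 ± 0.03 on the log2 scale and lies 3.72 Mb from Cish. The oxidase genes did not move as one: with Cybb, the proton channel gene Hvcn1 fell (-0.59 ± 0.05) and the cytosolic subunit gene Ncf1 rose (0.20 ± 0.03), and the other 7 of 10 did not pass the test. Azurophil granule genes, made earlier, were higher in 3 and lower in 3 of 16, and Serpinb1a (0.31 ± 0.04), an inhibitor of neutrophil proteases, and Ctsc (0.28 ± 0.05), which activates them, were among those higher. Hvcn1 and the apoptosis gene Bid each overlap a gene on the other strand, whose reads cannot be told apart here. The neutrophil marker list held 6 lower and 2 higher genes, several of them also granule genes, and without chromosome 9, which carries Mmp8, Ngp and Ltf, 3 lower and 2 higher remained.

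**Figure D5:**
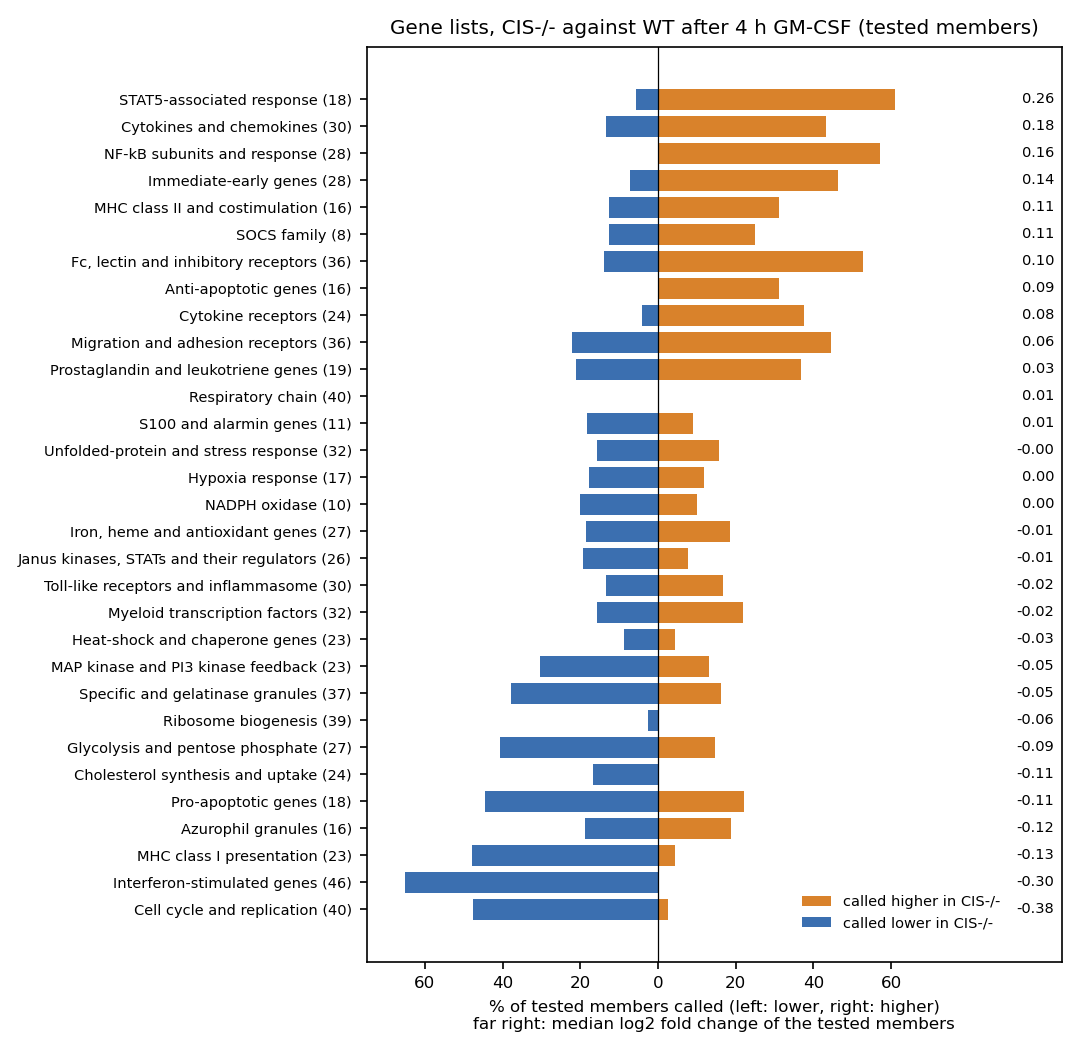
Share of the tested members of 31 gene lists called lower (left, blue) or higher (right, orange) in CIS-/- against WT after 4 h GM-CSF, in percent, with the number tested after each name and the median log2 fold change at the far right. Lists run from a median of 0.26 for STAT5-associated genes at the top to -0.30 for interferon-stimulated and -0.38 for cell cycle genes at the bottom.

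Cell cycle and replication genes were lower in 19 and higher in 1 of 40 tested, with a median of -0.38. Top2a, a topoisomerase of dividing cells, had 25.9, 27.5 and 28.7 CPM in libraries labelled CIS-/-, against 38.5, 37.5 and 39.3 CPM in WT (-0.49 ± 0.07, adjusted p = 2.59e-07), and the proliferation marker Mki67 had 38.1, 43.4 and 44.3 CPM in libraries labelled CIS-/-, against 56.6, 54.1 and 62.8 CPM in WT (-0.46 ± 0.06). The list was as low before stimulation, with 20 lower and 2 higher and a median of -0.39, against 9.41% lower and 12.9% higher among all genes. Cdk6, the 1 member higher, rose by 0.45 ± 0.06. Elane and Prtn3, early granule protease genes that were called lower, stood at no more than 2.17 CPM in any of the 6 libraries.

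Survival genes differed by small amounts. Of 16 anti-apoptotic genes 5 were higher and 0 lower by edgeR, DESeq2 and limma-voom alike (6 and 0 at an unadjusted p under 0.05). The 5 became 2 without replicate 2 of the CIS-/- label and 3 without its replicate 3, without WT replicate 1 or 3, or without chromosome 9. Mcl1, the main survival protein of neutrophils, averaged 2296 ± 15.5 CPM in libraries labelled CIS-/- and 2107 ± 32.9 CPM in WT (0.12 ± 0.03). Of 18 pro-apoptotic genes 8 were lower and 4 higher. Bid, which links death receptors to mitochondria, fell by 0.31 ± 0.04 on the log2 scale and Pmaip1, encoding NOXA, by 0.45 ± 0.07, while Diablo, an antagonist of caspase inhibitors, rose by 0.61 ± 0.06.

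Glycolysis genes were lower in 11 and higher in 4 of 27, and the 4 became 2 without any 1 of the 3 WT libraries. Before stimulation 8 of the 27 had been higher and 2 lower, against 12.9% and 9.41% of all genes. The change was called downward for 13 and upward for 2, against 10.4% and 5.32% of all genes. Slc2a1, the glucose transporter GLUT1, had 366, 357 and 353 CPM in libraries labelled CIS-/-, against 271, 256 and 263 CPM in WT (0.45 ± 0.04, adjusted p = 9.98e-16), while the transporter gene Slc2a3 (-0.20 ± 0.03) and the hexokinase gene Hk3 (-0.21 ± 0.03) were lower. The respiratory chain gave 0 calls among 40 genes by edgeR and 1, the oxidase subunit gene Cox8a, by DESeq2 and by limma-voom, and an unadjusted p under 0.05 held for 1 gene higher and 2 lower. Cox8a stood at 0.18 ± 0.07 (edgeR adjusted p = 0.102). Ribosome biogenesis gave 1 call among 39, the RNA polymerase I gene Polr1a (-0.40 ± 0.05). Cholesterol genes were lower in 4 and higher in 0 of 24 by edgeR, with 4 and 0 by DESeq2, 3 and 0 by limma-voom and 7 and 1 at an unadjusted p under 0.05 (lower in 2 without WT replicate 2), led by Sc5d (-0.46 ± 0.05) and the regulator Srebf2 (-0.39 ± 0.04).

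Part of the difference at 4 h was already present before stimulation. Of the 925 genes higher at 4 h, 296 were also higher in unstimulated libraries (32%, against 12.9% of all genes), 92 were lower there, 537 did not pass, and for 416 the change itself was called. Of the 1076 lower genes, 245 were lower before (22.8%, against 9.41% of all genes), 148 were higher, 683 did not pass, and for 513 the change was called. These comparisons share no libraries, but the unstimulated ones carry the Cish level that goes against their label.

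At 24 h the genotypes differed far more, with 8827 genes called (76.3%, 38.2% higher and 38.1% lower), and the difference changed between the times for 7633 genes (66%), upward at 4 h against 24 h in 3711 (32.1%) and downward in 3922 (33.9%). With library sizes alone as the scaling, these 2 counts became 6154 and 2247, since the median of all genes at 24 h moved to -0.55, against -0.02 with the TMM factors used here. Of the 925 genes higher at 4 h 557 were higher and 274 lower at 24 h, and of the 1076 lower genes 476 were lower and 449 higher. Cd101 was among those that turned, at 0.57 at 4 h and -4.64 at 24 h, and so was Alas1, at -1.33 at 4 h and 1.74 at 24 h, with either scaling. Rsad2 stood at -0.75 at 4 h and 0.54 at 24 h (0.01 with library sizes alone), and Spp1 at -0.32 at 4 h and 6.86 at 24 h. Csf1 kept its direction, at 0.34 and 4.77, and so did Cish, at -2.26 and -2.16.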

How the data were processed

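Bone marrow neutrophil RNA was sequenced in 18 libraries, 3 for each genotype and time, from a directional kit per the labels' protocols. The authors deposited whole-number counts per Ensembl gene, made with Trimmomatic, STAR and featureCounts on mm10 per the submitters' processing notes, while versions, annotation release and strand setting are stated nowhere in the sources used. The titles name 24 h as the later time, while the treatment protocol gives 42 h.

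Of 53379 gene identifiers 53274 were named from GENCODE M21, and the 105 others held 0.0238% of counts. Totals ran from 12170524 to 22539858 counts. The counts were fitted as deposited with edgeR 4.0.16 (R 4.3.3) as a quasi-likelihood model of 6 groups over all 18 libraries, with TMM factors, filterByExpr (11569 genes kept), a robust prior, two-sided tests and Benjamini-Hochberg adjustment. The common biological coefficient of variation came to 3.3%. The pipeline was tested on simulated data. Replicates at 4 h differed by 1.7 to 2.54 times sampling noise (chi-square per degree of freedom), so none was a duplicate. Counting intervals cover counting error only. RLE size factors, library sizes alone, DESeq2 1.42.0, limma-voom (limma 3.58.1), other filters, a replicate block and left-out libraries were alternatives.

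The 40 gene lists (997 of 998 entries matched) and the comparison were chosen with earlier results of these data known. Named genes were Cish, the 15 largest called rises and falls with at least 10 CPM and no overlap between groups, and up to 4 members a list at 1 CPM or more. The interferon-type motif, the interferon gene promoters printed and the fits without unstimulated libraries or chromosome 9 were chosen after the data were seen. Promoters are RefSeq windows on GRCm38.p6.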

Additional observations from a re-analysis of the deposited data

Results flagged for a closer look

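The genotype difference at 4 h was not the same as that in unstimulated libraries for 1821 genes, nor as that at 24 h for 7633, by the edgeR test of the change itself. The following genes are the leading rises and falls at 4 h for which this test was called against the unstimulated libraries, given as log2 values of CIS-/- over WT at 4 h, then unstimulated, then the change.

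Genes whose difference moved up included Thada (1.36 at 4 h, 0.36 unstimulated, change 1.0), Clasp2, which encodes a microtubule-binding protein (1.09, 0.17, change 0.92), and Fmnl3 (1.09, 0.26, change 0.83). Clasp2 lies in the chromosome 9 window around Cish. Rbpms changed by 0.78 (1.19 at 4 h, 0.41 unstimulated) and Fyco1, an adaptor of vesicle transport near Cish on chromosome 9, by 0.52 (1.88 at 4 h, 1.36 unstimulated).

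Genes whose difference moved down were led by Cish, at -2.26 at 4 h and 1.52 unstimulated, a change of -3.78 in which the unstimulated libraries go against their label. The interferon-induced genes Ifit3 (-1.21 at 4 h, -0.04 unstimulated), Ifit2 (-1.30, -0.26) and Ifit3b (-1.14, -0.23) changed by -1.18, -1.04 and -0.91. Erg (-0.93 at 4 h, -0.15 unstimulated) and Hemk1 (-0.88, -0.10) each changed by -0.78, Acpp by -0.77 (-1.35 at 4 h, -0.58 unstimulated) and N4bp3 by -0.51 (-0.85, -0.34). Hemk1 and Acpp lie in the window around Cish.

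For 4 of the leading genes the difference was called in opposite directions at 4 h and 24 h. Thada was higher at 4 h (1.36) and lower at 24 h (-0.63), a difference of 1.99 between the times. Alas1 was lower at 4 h (-1.33) and higher at 24 h (1.74), a difference of -3.07. Lrrfip2 (-0.92 at 4 h, 1.66 at 24 h) and Gpnmb (-0.86, 2.09) differed between the times by -2.58 and -2.95. All 4 kept these directions at 24 h with library sizes alone.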

How the results depend on the processing

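The count of 2001 genes at 4 h was 1990 with RLE size factors, 2028 with library sizes alone, 1943 with limma-voom, 1766 with DESeq2, 2361 from the 6 libraries at 4 h alone and 1649 with no filter on low counts. Asking for a log2 fold change of at least 1 left 126 genes, 69 higher and 57 lower. Leaving out 1 library gave 1614 to 1779 calls (743 to 850 higher, 855 to 929 lower). It gave 1584 to 1698 changes against unstimulated cells (501 to 591 up, 1032 to 1107 down) and 7390 to 7633 against 24 h (3537 to 3700 up, 3801 to 3961 down). Without the 6 unstimulated libraries 1814 genes were called, and without chromosome 9 1853. With library sizes alone the changes against 24 h split into 6154 up and 2247 down.

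With the replicate number as a block 2024 genes were called. Same-numbered libraries of the 2 genotypes at 4 h did not clearly deviate together (r = 0.037, 0.033 and -0.027). No pairing by number was seen, but this check would miss a shared effect smaller than the noise between libraries. The block ended no call among the 148 named genes that were called.

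No named gene turned its sign under any of these settings. Up to 6 of the 148 lost their call when 1 library was left out, without replicate 2 of the CIS-/- label (Stat5b, Anxa3, Cflar, Birc3, Hspa9 and Elane) and without WT replicate 3 (Stat5b, Prtn3, Cflar, Sqle, Hspa9 and Siglecf). The causes were not tested. Elane and Epx, at a few CPM or less, rest on few counts.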

Other observations

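Genes of lipid mediators were higher in 7 and lower in 4 of 19 tested after 4 h. Alox5, the 5-lipoxygenase that starts leukotriene synthesis, averaged 667 ± 14.7 CPM in libraries labelled CIS-/- and 584 ± 11.2 CPM in WT (SD, n = 3 each), a log2 fold change of 0.19. Lta4h, the hydrolase that makes leukotriene B4, averaged 74.3 ± 3.91 CPM in libraries labelled CIS-/- and 97 ± 3.73 CPM in WT (-0.38). The cyclooxygenase gene Ptgs1 (0.34) and the thromboxane synthase gene Tbxas1 (0.46) were higher, and Tbxas1 overlaps another gene on the opposite strand.

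Iron, heme and antioxidant genes were called higher in 5 and lower in 5 of 27. The 5 higher became 2 without replicate 2 of the CIS-/- label and 3 without its replicate 1, WT replicate 1 or 2, or the unstimulated libraries. The 5 lower became 3 without replicate 3 of either genotype, by DESeq2 and with RLE size factors. Slc40a1, the iron exporter ferroportin, averaged 954 ± 22.1 CPM in libraries labelled CIS-/- and 1298 ± 32.5 CPM in WT (-0.44), and Hmox1, the heme-degrading enzyme, averaged 666 ± 8.31 CPM in libraries labelled CIS-/- and 787 ± 17.2 CPM in WT (-0.24). Txnrd1, a thioredoxin reductase, was higher (0.26). Among 17 hypoxia genes 2 were higher and 3 lower, with Egln3, an oxygen-sensing hydroxylase, at 1190 ± 24.3 CPM in libraries labelled CIS-/- and 855 ± 17.2 CPM in WT (0.48), and Hif1a higher by 0.30.

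Myeloid transcription factors were higher in 7 and lower in 5 of 32 (3 lower without replicate 1 of the CIS-/- label), among them Bhlhe40 (0.31), Runx1 (0.26) and Id1 (0.35), all higher. Of 32 unfolded-protein and stress genes 5 were higher and 5 lower (3 lower without replicate 3 of the CIS-/- label), with the factor gene Xbp1 at 0.23 and Hyou1, a chaperone of the endoplasmic reticulum, at -0.53. By edgeR heat-shock genes gave 1 higher and 2 lower of 23, and by DESeq2 1 and 0 (1 and 3 at an unadjusted edgeR p under 0.05), and the 2 lower became 1 without any 1 of the 3 WT libraries. S100 and alarmin genes gave 1 higher (0 without replicate 2 of the CIS-/- label) and 2 lower of 11, with Hmgb2 at -0.21 and Anxa5 at -0.23.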
